A study of Mus musculus with 22 samples.

Results

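The nuclear-encoded genes of the mitochondrial respiratory chain were examined in mouse choroid plexus (ChP), the secretory tissue of the brain ventricles. Members were the protein-coding genes whose symbols begin with Nduf, Uqc, Cox4 to Cox8 or Atp5, together with Sdha, Sdhb, Sdhc and Sdhd. This gave 97 of the 33984 genes with counts. They comprised 7 core subunits, 29 accessory subunits and 8 assembly factors of complex I, 4 subunits of complex II, 8 subunits and 3 assembly factors of complex III, 20 genes of complex IV and 18 genes of ATP synthase. A second locus that the annotation also names Atp5o was kept apart and is called Atp5o-207 here.

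The respiratory chain passes electrons from NADH through complex I, or from succinate through complex II, to complex III, cytochrome c and complex IV, where oxygen is reduced. The proton gradient built along the way drives ATP synthase. Most subunits are made from nuclear genes and imported, while a small set is encoded by mitochondrial DNA, and the ion pumping that forms cerebrospinal fluid consumes much ATP. Several complex IV subunits exist as a widely used form and a form known from muscle or another tissue.

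RNA was sequenced from 14 pools of ChP, 2 for each of 7 groups. In the conditional model, adult Otx2 lox/lox mice (strain label S129, 3 months old) received an intracerebroventricular injection of Cre-Tat, a cell-permeable recombinase, or of vehicle, and lateral ventricle (LV) and 4th ventricle (4V) ChP were taken 15 days later. Cre-Tat pools held 5 mice and vehicle pools 4, all mice carried the floxed allele, and Cre-Tat is not limited to a cell type by a promoter. In the constitutive model (strain label B6D2), 4V ChP was pooled from 5 wildtype mice and from 4 littermates labelled Otx2+/-, in which GFP replaces 1 Otx2 copy, both 3 months old, and from mice labelled Otx2+/AA, whose age is not given in the sources used here. Whether 5 and 4 are numbers per pool or per genotype is not given, nor whether the 2 pools of a genotype hold different mice. The study's methods give mice of both sexes but do not describe the Otx2+/AA group. Each sample is a pool, so the spread is between pools. LV and 4V ChP were dissected from the injected mice, and which LV and 4V pools share animals is not given in the sources used here.

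Otx2 itself went against the knockdown labels. Its level in CPM, reads scaled to an equal library size after TMM normalization, was 377 and 459 in vehicle LV pools A and B, and 1209 and 1002 in the LV pools labelled Cre-Tat. It was 377 and 385 in vehicle 4V pools, and 1175 and 1195 in 4V pools labelled Cre-Tat. It was 371 and 314 in wildtype pools, 1062 and 913 in pools labelled Otx2+/-, and 350 and 366 in pools labelled Otx2+/AA. The counted transcript was therefore higher where the label names a loss. The study followed the knockdown on a single exon, which counts per transcript do not separate, so these values do not measure the deletion. Whether labels or the counted transcript account for the direction was not tested, and groups are named by their labels throughout. Ttr, the transport protein that defines ChP epithelium, was at 59724 to 181284 CPM in every pool, so the tissue label was met. Of 8 epithelial markers, 3 fell in LV and 8 in 4V with the Cre-Tat label, and 3 fell with the Otx2+/- label. Their summed level was 179529 and 212176 CPM in vehicle 4V pools and 84053 and 95035 CPM in 4V pools labelled Cre-Tat. It was 215861 and 225004 against 119676 and 160165 CPM in LV, and 194260 and 203479 in wildtype against 127828 and 135524 CPM in Otx2+/- pools. Of 6 immune markers, 3 rose in LV and 5 in 4V with the Cre-Tat label, and their sum stayed under 100 CPM in every pool. The part of cell composition in the results was not tested. In pooled tissue, fewer cells of a type and less RNA per cell cannot be told apart.

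Level was compared between members only per length, as CPM per kilobase of the protein-coding transcript with the most counts. The 5 highest were Atp5b and Atp5a1, the catalytic beta and the alpha subunit of ATP synthase, Cox4i1, the common form of complex IV subunit 4, Uqcrh, the hinge protein of complex III, and Ndufb10, an accessory subunit of complex I. Their means over 14 pools were 456, 402, 379, 334 and 287 CPM per kilobase. The ranges over pools were 366 to 511 for Atp5b, 333 to 457 for Atp5a1 and 267 to 483 for Cox4i1, with 226 to 489 for Uqcrh and 230 to 344 for Ndufb10. The range of every gene in this order overlapped that of the next, and Ndufb10 also overlapped the gene ranked 6, Cox6b1, at 163 to 301. These ranges span pools of all groups and both models, and the order within single pools was not compared. The 8 complex I assembly factors had a median of 11.2 CPM per kilobase, against 71.2 for the core and 63.9 for the accessory subunits of the same complex, and complex II had 89.7.

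**Figure D1:**
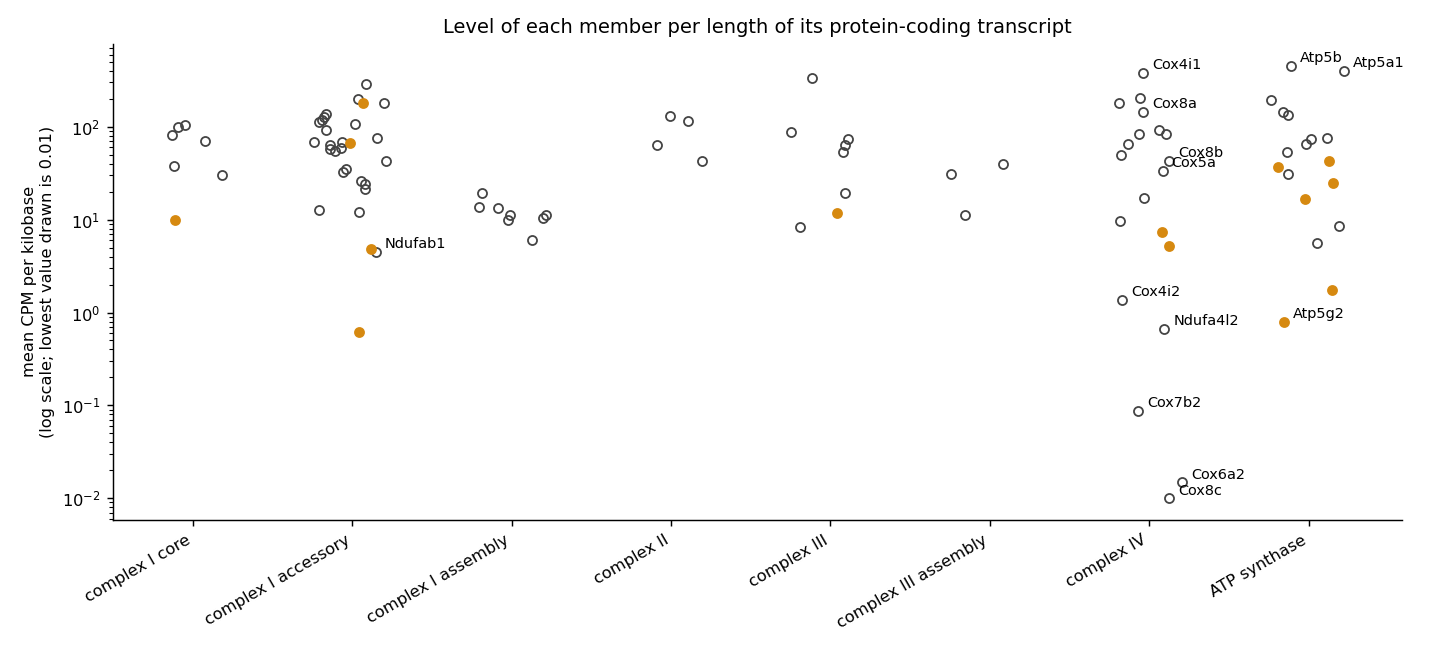
Mean level of each member over 14 pools, in CPM per kilobase on a log axis, by complex; filled points mark the 14 members that share 20% or more of their 50-base windows with other genes. Atp5b stands highest at 456 CPM per kilobase and Cox8c, drawn at the floor, had no counts.

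Some low levels belong to genes whose reads cannot be placed well. For 14 members, at least 20% of the 50-base windows of the counted transcript also occur in other genes, most of them pseudogenes, and their median level was 11 CPM per kilobase against 57.6 for the other 83. Atp5g2, a c subunit gene of ATP synthase, shared 100% of its windows and was at 0.792 CPM per kilobase. Atp5l shared 68.5% and was at 1.76, and Ndufb4 shared 37% and was at 0.612. The levels of these 14 genes are uncertain. They are included in the medians over members and roles. Of the members that passed a test below, Cox8b, Ndufa3 and Atp5mpl shared no window, Cox5a shared 3.36%, and Cox6a1 and Ndufab1 shared 12.3% each.

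Isoforms separated clearly by level. Cox8c, known from testis, had no counts in any pool, and Cox6a2, the muscle form of Cox6a1, had at most 1 count in a pool. Cox7b2 had at most 4 counts. These 3 were the members tested in no comparison of groups. Cox4i2, an oxygen-responsive form, made up 0.182 to 0.609% of the Cox4i1 and Cox4i2 sum per kilobase, and Ndufa4l2 0 to 1.1% of its sum with Ndufa4. Other tissue forms were well represented. Cox6b2, known from testis, made up 20.9 to 27.9% of its sum with Cox6b1, and Cox7a1, the heart and muscle form, made up 8.14 to 25.7% of its sum with Cox7a2. Atp5g3 made up 89.1 to 94.8% of its sum per kilobase with Atp5g1, which encodes the same mature c subunit. That share depends on the lengths used, 714 bases for Atp5g3 and 4715 for Atp5g1. Before division by length, mean CPM of Atp5g3 and Atp5g1 were 50.8 and 28.5 in vehicle LV pools and 64.5 and 27.7 in wildtype pools. The c subunit gene Atp5g2, with uncertain reads, is not in the sum. The remaining genes of the isoform groups, Cox7a2l and Cox7b, passed in no comparison, and Cox7a2l was at 8.04 to 13 CPM.

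Cox8b, the form of subunit 8 known from heart, muscle and brown fat, ranged most widely against its partner Cox8a, from 9.77 to 38.4% of their sum per kilobase. The promoters of this pair are shown because the genes differ in how their level varied between groups. Both run from 250 bases before to 30 bases after the RefSeq start site (GRCm38.p6), 5′ to 3′ on the gene's strand. Cox8b lies at chr7:140900417-140900696 and Cox8a at chr19:7217587-7217866, both on the minus strand.
Cox8b: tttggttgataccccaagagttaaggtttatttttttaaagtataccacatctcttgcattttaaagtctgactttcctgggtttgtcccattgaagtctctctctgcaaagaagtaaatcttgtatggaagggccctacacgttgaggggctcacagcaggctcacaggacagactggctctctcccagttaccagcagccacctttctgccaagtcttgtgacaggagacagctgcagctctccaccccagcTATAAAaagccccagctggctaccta
Cox8a: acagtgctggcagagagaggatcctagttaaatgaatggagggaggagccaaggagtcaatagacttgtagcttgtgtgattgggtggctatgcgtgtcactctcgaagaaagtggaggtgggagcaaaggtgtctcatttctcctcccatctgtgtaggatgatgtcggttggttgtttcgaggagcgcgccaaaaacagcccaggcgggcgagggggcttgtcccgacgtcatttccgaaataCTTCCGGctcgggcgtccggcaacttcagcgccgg
Capitals mark the letters of the TATA box core, TATAAA, in Cox8b and the ETS-family core CCGGAAG, here on the other strand, in Cox8a. The Cox8b match begins at base 5 after the RefSeq start site, and the Cox8a match at base -5. A TATA box acts from before the start site, so this match is not shown to be one. Promoters were matched for 77 members. Searched on both strands, TATAAA was present in 9.09% of these members against 15.1% of all 27025 genes with a promoter, and CCGGAAG in 23.4% against 9.48%. GCGCATG, part of an NRF1-type site, was present in 19.5% of members against 4.21% of genes, and TAATCC, a homeodomain core of the OTX2 type, in 7.79% against 7.8%. The motifs do not overlap one another in the windows shown, and a match describes letters, not binding.

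The first question was what the Cre-Tat label changed in LV ChP. There, 92 members passed the filter on low counts, 1 rose and none fell, while over all 15002 genes tested 2.21% rose and 1.03% fell (edgeR quasi-likelihood test, Benjamini-Hochberg adjusted p under 0.05). With an unadjusted p under 0.05 there were 4 members, 4.35% against 14.2% of all genes. The median log2 fold change was 0.07 for members and 0.004 for all genes. The member that rose was Cox5a (chromosome 9, 57521274 to 57532426, plus strand), a nuclear subunit of complex IV. It was at 15.6 and 15.2 CPM in vehicle LV pools and at 27.3 and 23.3 CPM in LV pools labelled Cre-Tat. The groups did not overlap, and Cox5a was 1.65-fold higher (log2 fold change 0.72, SE 0.17, edgeR adjusted p = 0.034). The call was lost without either vehicle pool or without Cre-Tat pool A, and when transcripts were summed, with the log2 fold change between 0.61 and 0.89 over all alternatives by library number.

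The same label was compared in 4V ChP, where changes were more numerous over all genes. Of 92 members tested, 3 rose and none fell, against 5.7% of 14550 genes that rose and 4.98% that fell, and the member median was 0.08 against 0.006. With an unadjusted p under 0.05 there were 10 members, 10.9% against 22.2% of all genes. Cox5a was at 13.5 and 14.3 CPM in vehicle 4V pools and at 27.5 and 21.2 CPM in pools labelled Cre-Tat, without overlap. It was 1.76-fold higher (log2 fold change 0.82, SE 0.18, edgeR adjusted p = 0.005). Both tissues of this model therefore showed higher Cox5a with the Cre-Tat label, in separate pools that may come from the same mice. The constitutive pools lay near the upper level whatever their label, at 28.2 and 23.5 CPM in wildtype, 24.4 and 25.2 in Otx2+/- and 20.2 and 24.7 in Otx2+/AA. Strain, run and treatment differ between the models and cannot be told apart.

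Cox8b (chromosome 7, 140898945 to 140900446, minus strand) also rose in 4V. It was at 4.93 and 4.61 CPM in vehicle pools, from 68 and 51 reads, and at 9.44 and 8.81 CPM in pools labelled Cre-Tat, from 178 and 179 reads. The pools of each group were close to each other and the groups did not overlap. The fold change was 1.92 (log2 0.94, SE 0.22, edgeR adjusted p = 0.0084). In LV, Cox8b was at 16.2 and 21.4 CPM with vehicle and 20.7 and 37.3 CPM with the Cre-Tat label. Those groups overlapped, and the log2 fold change of 0.63 (SE 0.24) had an edgeR adjusted p of 0.23. Without LV Cre-Tat pool A it passed (log2 1.01, edgeR adjusted p = 0.01), as it did without the filter (edgeR adjusted p = 0.031), and without pool B the log2 fold change was 0.15. Cox8a did not follow, with log2 fold changes of -0.10 (SE 0.18) in LV and -0.08 (SE 0.14) in 4V, neither past the threshold. Of the muscle markers, Myh7 was lower with the Cre-Tat label in 4V, at 9.07 and 11 CPM against 30.3 and 28.5 CPM. In LV it was at 15.7 and 17.8 CPM against 28.8 and 31.6 CPM. It was also lower in Otx2+/- pools, at 17.1 and 20.3 CPM against 29.7 and 28.6 CPM in wildtype. Ckm, Acta1 and Tnnt3 were under 1 CPM in every pool, so Myh7 is not shown to stand for muscle here.

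The last of the 3 was Ndufab1, the mitochondrial acyl carrier protein, which is an accessory subunit of complex I and also serves lipoic acid synthesis. It was at 12.8 and 11.8 CPM in vehicle 4V pools and at 15.8 and 21.4 CPM in pools labelled Cre-Tat. The groups did not overlap, but the Cre-Tat pools were spread (18.6 ± 3.93 CPM, SD, n = 2). The log2 fold change was 0.60 (SE 0.18, edgeR adjusted p = 0.045), and the call was lost with DESeq2, with summed transcripts and without either vehicle pool or Cre-Tat pool B, where the log2 fold change was 0.32 at the lowest. The number of members called in 4V was 7, 4 of them lower, without Cre-Tat pool A, and 6, all higher, without pool B. These were 7.61% and 6.45% of members tested, against 11.2% and 10.7% of all genes in the same fits.

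**Figure D2:**
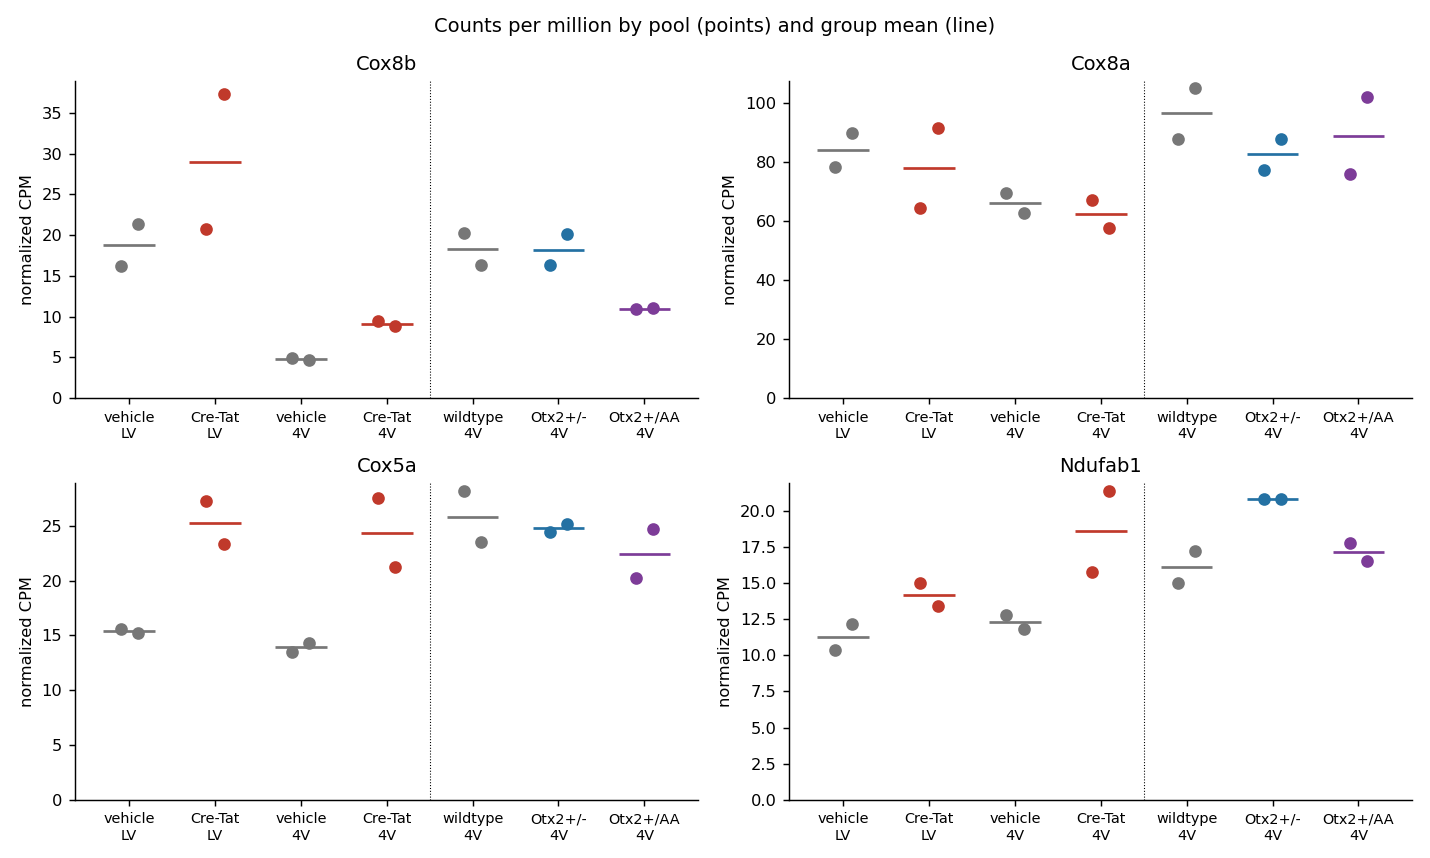
Normalized CPM of Cox8b, Cox8a, Cox5a and Ndufab1 in each pool (points) with the group mean (line); the dotted line separates the conditional from the constitutive model. Cox8b was at 4.61 to 4.93 CPM in vehicle 4V pools and at 8.81 CPM or more in every other pool, while Cox8a lay between 57.6 and 105 CPM.

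Whether the effect of the label differed between ventricles was tested as an interaction over 8 pools. None of 94 members passed, against 0.00642% of all 15565 genes (1 gene, edgeR quasi-likelihood test). With an unadjusted p under 0.05 there were 0 members, against 2.67% of all genes. The interaction term was 0.10 (SE 0.24) for Cox5a and 0.31 (SE 0.36) for Cox8b on the log2 scale. A difference between LV and 4V was not detected for these genes, which does not show that the effects are alike.

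By role, the log2 fold changes of the Cre-Tat label were small. The 7 core subunits of complex I were all above 0, with medians of 0.19 in LV and 0.22 in 4V, and the 29 accessory subunits had medians of -0.01 and -0.02. None of the core subunits passed the test. Members with a counted transcript under 1000 bases had medians of 0.01 in LV and 0.03 in 4V, and longer members 0.11 in each. The part of transcript length in the difference between core and accessory subunits was not tested. Complex II, which also serves the citric acid cycle, was above 0 for 4 of 4 genes in each tissue, with medians of 0.13 and 0.14. Sdha, its flavoprotein, had log2 fold changes of 0.11 (SE 0.16) in LV and 0.18 (SE 0.14) in 4V, and Sdhb, Sdhc and Sdhd lay between 0.04 and 0.25. ATP synthase had medians of 0.08 and 0.13.

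The constitutive model asked the same of Otx2+/- against wildtype mice in 4V ChP. None of 93 members passed the edgeR test, against 1.78% of 14573 genes that rose and 1.75% that fell. DESeq2 called 2 members, 2.15% against 4.54% of all genes. With an unadjusted p under 0.05 there were 20 members, 18 of them lower, which is 21.5% of members against 18.5% of all genes. The member median was -0.11 against -0.001 for all genes, and 68 of 93 were below 0. Above 0 were 26.9% of members against 49.9% of all genes. Ndufv3, an accessory subunit of complex I, had the lowest adjusted p. It was at 224 and 239 CPM in wildtype pools and at 149 and 176 CPM in pools labelled Otx2+/-, without overlap. Its log2 fold change was -0.51 (SE 0.12, edgeR adjusted p = 0.067). Ndufa13 (-0.44, SE 0.11) and the complex III assembly factor Uqcc2 (-0.57, SE 0.15) were close to the threshold too, with edgeR adjusted p of 0.076 and 0.077. These 3 genes are named after their values were seen. DESeq2 called Ndufa13 and Ndufv3. Which members edgeR called changed with the pool left out, and the member median then ran from -0.16 to -0.07. Cox5a and Cox8b had log2 fold changes of -0.06 (SE 0.14) and -0.01 (SE 0.17). Ndufab1 was at 15 and 17.2 CPM in wildtype pools and at 20.8 and 20.8 CPM in Otx2+/- pools. Its log2 fold change of 0.37 (SE 0.15, edgeR adjusted p = 0.22) did not pass. Differences between the models were not tested.

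In Otx2+/AA against wildtype pools, none of 91 members passed the edgeR test or DESeq2, and 3 had an unadjusted p under 0.05, 3.3% against 8.91% of all genes. Over all 14494 genes, 0.172% rose and 0.172% fell. The member median was -0.03 against -0.006. Cox8b was the lowest member. It was at 20.3 and 16.3 CPM in wildtype pools and at 10.9 and 11 CPM in pools labelled Otx2+/AA, without overlap, with a log2 fold change of -0.75 (SE 0.18, edgeR adjusted p = 0.11). It passed without wildtype pool B. Against the same Otx2+/AA pools, those labelled Otx2+/- had 1 member higher of 92 and none lower, beside 1.37% of 14578 genes that rose and 1.33% that fell, and the member median was -0.12. That member was Cox8b, at 16.3 and 20.1 CPM in Otx2+/- pools, with a log2 fold change of 0.74 (SE 0.18, edgeR adjusted p = 0.047). The call was lost without Otx2+/- pool B, by total counts, without the filter and with summed transcripts. Both comparisons share the Otx2+/AA pools.

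The ventricles were compared in vehicle pools. Of 91 members, 4 were higher in LV and none lower, against 3.46% of 14561 genes higher and 3.98% lower. With an unadjusted p under 0.05 there were 26 members, all higher, which is 28.6% against 22.8% of all genes. The member median was 0.25 against 0.006 for all genes. Above 0 were 80 of 91 members, 87.9% against 50.7% of all genes. Complex III had the highest median by role, 0.32, with 8 of 8 genes above 0. Cox8b, with the pool values given above, was 3.92-fold higher in LV, the largest difference among members (log2 1.97, SE 0.20, edgeR adjusted p = 5.4e-05). Its partner Cox8a had a log2 difference of 0.34 (SE 0.12), which did not pass. Myh7, from the muscle list, was at 28.8 and 31.6 CPM in LV and 30.3 and 28.5 CPM in 4V, at about the same level.

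The other calls between ventricles were smaller. Ndufa3, an accessory subunit of complex I, was at 43.9 and 49.8 CPM in LV and 34.1 and 28.7 CPM in 4V (log2 difference 0.57, SE 0.13, edgeR adjusted p = 0.022). Its most counted transcript is annotated as a retained intron. Cox6a1, a subunit of complex IV, was at 32.5 and 32.9 CPM in LV and 23.6 and 20.3 CPM in 4V (0.57, SE 0.14, edgeR adjusted p = 0.025). Atp5mpl, a small subunit of ATP synthase, was at 95.9 and 84.8 CPM in LV and 67.9 and 56.6 CPM in 4V (0.53, SE 0.13, edgeR adjusted p = 0.028). None of these groups overlapped, but scaling by total counts, or leaving out vehicle 4V pool B, ended all 3 calls, and the number of members called was 1 without that pool, 11 without vehicle 4V pool A and 8 without vehicle LV pool B, which is 1.06%, 11.7% and 8.7% of members against 2.6%, 4.13% and 5.06% of all genes. Without LV pool B the Ndufa3 call was lost, and without LV pool A that of Atp5mpl.

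**Figure D3:**
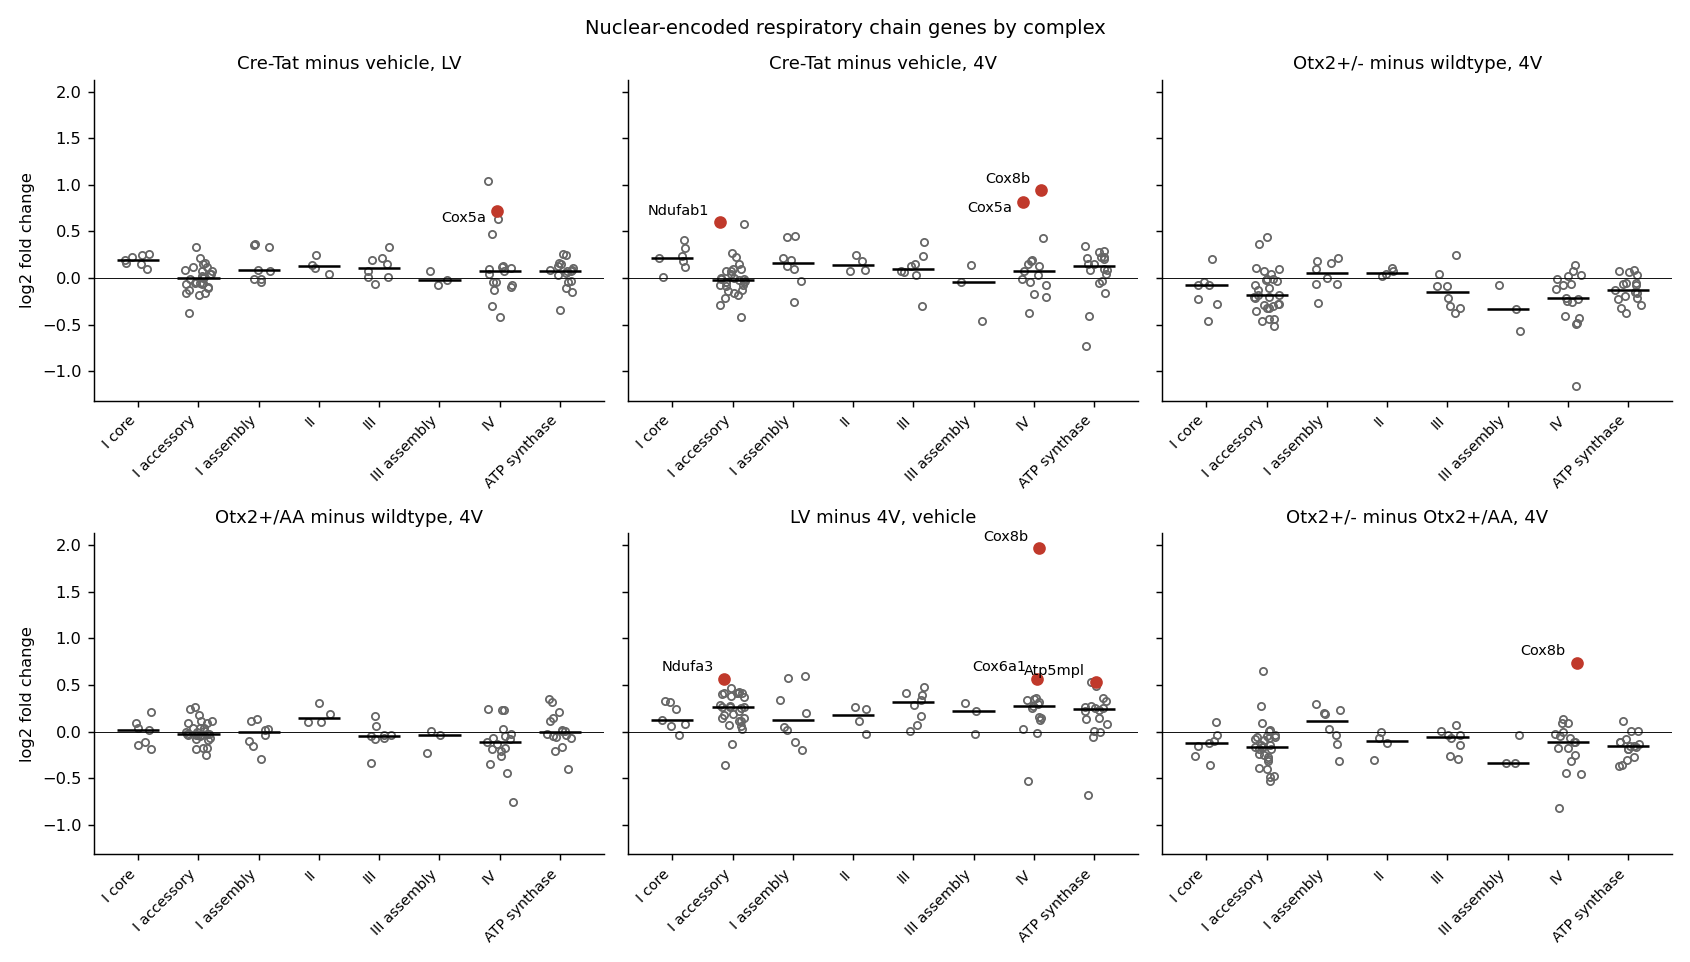
Log2 fold change of each tested member (points), by complex, for the 6 comparisons of groups; filled points passed an adjusted p of 0.05 and lines are medians by role. Most members lie within 0.5 of 0, and Cox8b stands at 1.97 in the comparison of ventricles.

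In some groups, members tended to shift together from pool to pool. Relative to the mean of each run, on the log2 scale, the member median was 0.02 in LV Cre-Tat pool A and 0.29 in pool B. It was -0.05 and -0.26 in vehicle 4V pools A and B, and 0.05 and -0.21 in 4V Cre-Tat pools A and B. Pools A and B lay closer in vehicle LV (0.09 and 0.12), wildtype (0.03 and 0.03), Otx2+/- (-0.15 and -0.02) and Otx2+/AA (-0.00 and 0.11). In LV Cre-Tat pool B, 83 of 88 members were above the run mean, and in vehicle 4V pool B 79 were below it. In both Cre-Tat comparisons the gap between pools of 1 group was thus larger than the member median. Without LV Cre-Tat pool B the LV median was -0.09, and without 4V Cre-Tat pool A the 4V median was -0.09.

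Transcript length moved with these shifts. Other protein-coding genes with a counted transcript under 1000 bases had medians of 0.26 in LV Cre-Tat pool B, -0.18 in vehicle 4V pool B and -0.22 in 4V Cre-Tat pool B, and members under 1000 bases had 0.36, -0.30 and -0.32. Genes over 3000 bases had -0.10, 0.07 and 0.08 in the same pools. In Otx2+/- against wildtype pools, members under 1000 bases had a median log2 fold change of -0.21, other genes of that length -0.18, and members of 1000 bases or more -0.02. Between ventricles, short members had 0.32, other short genes 0.11 and longer members 0.15. The part of length or RNA quality in these values was not tested.

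**Figure D4:**
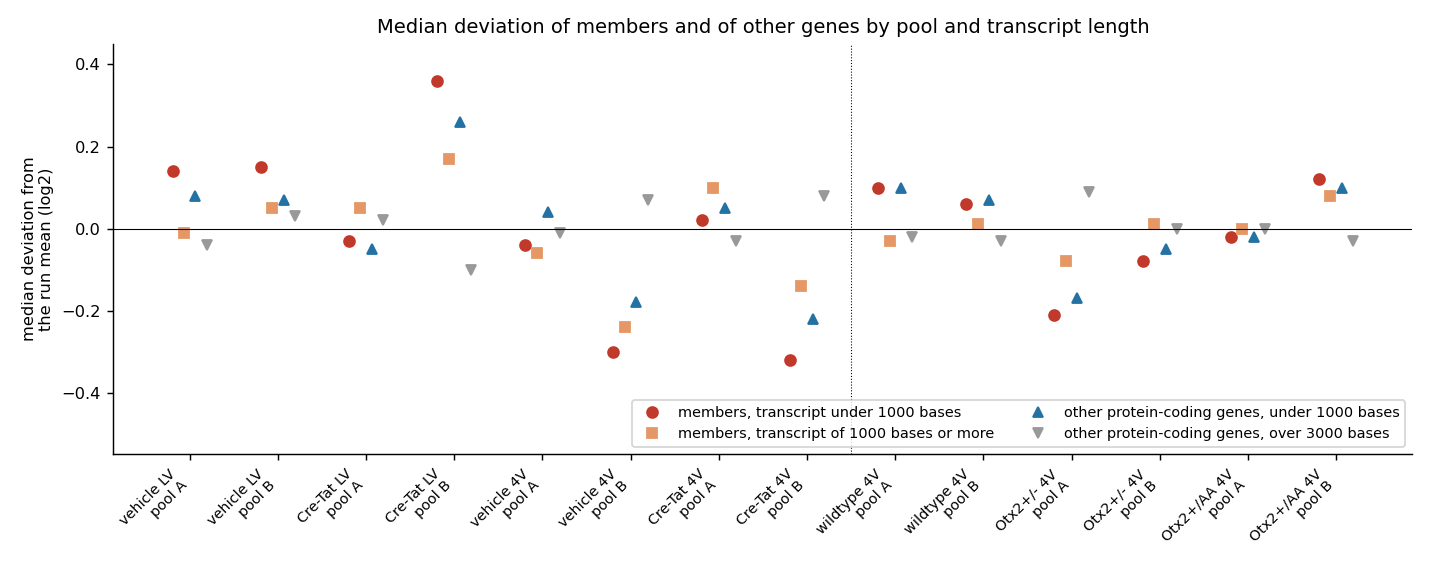
Median deviation from the run mean (log2) in each pool, for members and other protein-coding genes split by transcript length; the dotted line separates the runs. Members under 1000 bases ran from -0.32 in 4V Cre-Tat pool B to 0.36 in LV Cre-Tat pool B, on the same side of 0 as other short genes in those pools.

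The subunits encoded by mitochondrial DNA were examined beside the members. Of 13, 6 were under 1 CPM in every pool and 7 were measured. Windows shared with other genes were not examined for these 13, so the 6 low values are not shown to mean absent RNA. All 7 were higher in LV than in 4V vehicle pools, with a median log2 difference of 0.97. The large gap is shown by mt-Nd1, a core subunit of complex I, at 7267 and 8799 CPM in LV and 3815 and 3192 CPM in 4V (log2 difference 1.19, SE 0.15, edgeR adjusted p = 0.00024). The 7 calls held without each pool in turn. With the Cre-Tat label, 6 of 7 rose in 4V, with a median of 0.87, and none in LV, with a median of -0.06. That count rests largely on 1 pool: mt-Nd1 was at 4773 CPM in 4V Cre-Tat pool A and 7492 CPM in pool B, and without pool B 1 gene passed, with a median of 0.37. Without vehicle 4V pool B 4 passed, and DESeq2 called 1. In that pool B the nuclear-encoded members lay below the run mean. The interaction with ventricle passed for none of the 7 in the main fit, where its median was 1.03 on the log2 scale. Without the filter on low counts it passed for 6 of 8, against 0.134% of all genes. All 6 were above 0, and the median over the 8 was 0.98. Without 4V Cre-Tat pool B the median was 0.44. None of these genes passed in the constitutive comparisons.

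**Figure D5:**
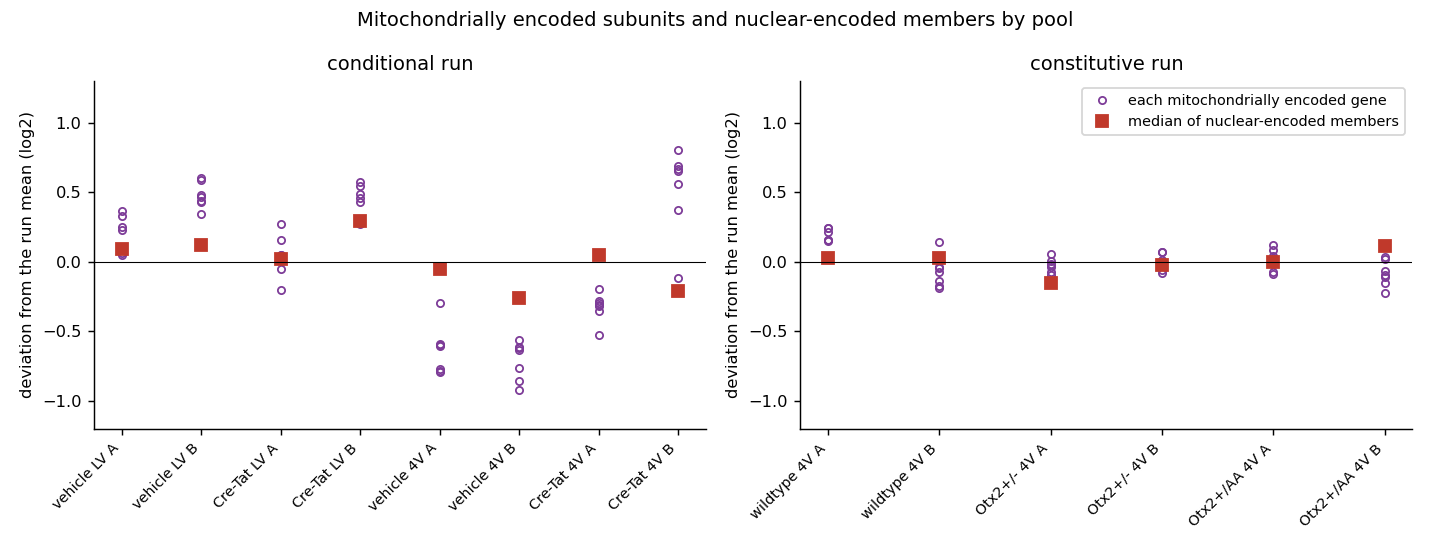
Deviation from the run mean (log2) of the 7 measured mitochondrially encoded genes (open points) and the median of nuclear-encoded members (squares) in each pool. In 4V Cre-Tat pool B the member median was -0.21 while 6 of the 7 mitochondrially encoded genes lay above 0.

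Lists of related pathways were counted beside the members, and for the Cre-Tat label in 4V the background is again 5.7% of all genes higher and 4.98% lower. Of 37 other assembly factors of the chain, Taco1 rose (0.75, SE 0.21) and Ttc19 fell (-0.52, SE 0.15) with the Cre-Tat label in 4V (edgeR adjusted p = 0.029 for each), and Acad9 was higher in LV. Of 13 regulators of mitochondrial biogenesis, Ppargc1a, a coactivator of mitochondrial genes, rose in 4V (log2 0.74, SE 0.16, edgeR adjusted p = 0.0049). Of 18 genes of pyruvate dehydrogenase and the citric acid cycle, Dlat and Idh3g rose there by 0.46 and 0.71. Of 17 glycolytic genes, the glucose transporter Slc2a1 rose by 0.61 and Ldha fell by 0.58. No gene of these lists passed with the Cre-Tat label in LV or in the constitutive comparisons, and neither cytochrome gene, Cycs or Cyc1, passed anywhere.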

How the data were processed

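RNA came from pooled LV or 4V ChP. The authors deposited counts, whole numbers of 50-base reads for each of 95533 Ensembl transcripts, without normalization. The submitters' notes name bcl2fastq 1.8.4, Bowtie 0.12.9, SAMtools, HTSeq 0.5.3 and DESeq 1.8.3, with build mm10. The labels describe ribosomal RNA depletion and strand-specific libraries, and the study's methods describe PolyA+ selection. Whether counting used strand is not given in the sources used here, and 33 members overlap another gene.

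In the conditional model, 14 of 16 files carry a library number that belongs to a sample other than the attached one. Runs of 1 library number differed by no more than sampling noise (chi-square per degree of freedom 0.976 to 1.01) and files were joined by that number. The 2 runs were summed, giving 22750019 to 50088408 counts per pool. These depths set counting error only.

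The plan assumed counts per gene. Transcripts were matched to GENCODE vM21 (82807 matched, with 89.5% of counts), and the most counted transcript, summed over files, stood for each gene; it was of a noncoding type for 13 members. Genes passing filterByExpr were compared in edgeR 4.0.16 under R 4.3.3 (TMM, quasi-likelihood test, Benjamini-Hochberg adjustment over all genes, threshold 0.05). Each comparison of groups used its 4 pools, and the interaction 8. CPM were scaled by TMM within each run. The steps were tested on simulated data. Alternatives were DESeq2 1.42.0, its size factors, total counts, no filter, a replicate block, each pool left out, summed transcripts and the files as attached, with protein-coding transcripts, crossed letters and leave-one-out interactions added after seeing the data. Tables were made with Python 3.11.15, pandas 2.3.3 and NumPy 2.4.6, and figures with Matplotlib 3.10.9.

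Members, gene lists and tests were chosen with earlier results of these data known. Named members are those that passed, the 5 highest per length, complex II and the isoform groups. P values measure only the spread between pools. With 2 pools a group, exact permutation cannot reach the threshold.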

Additional observations from a re-analysis of the deposited data

How the results depend on the processing

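The 9 calls of named members kept their direction in all 100 alternatives that joined files by library number, and 78 of these passed the threshold. Cox8b between ventricles (log2 1.77 to 2.15), Cox8b in 4V (0.88 to 1.08) and Cox5a in 4V (0.61 to 1.00) passed in every one. Leaving out each pool in turn gave 0 to 1 members called for the Cre-Tat label in LV, 2 to 7 in 4V, 0 to 2 for Otx2+/- against wildtype, 0 to 1 for Otx2+/AA against wildtype, 1 to 11 between ventricles and 0 to 2 for Otx2+/- against Otx2+/AA. The member medians then ran from -0.09 to 0.19, -0.09 to 0.21, -0.16 to -0.07, -0.05 to 0.02, 0.13 to 0.37 and -0.20 to -0.05 in that order. Each of these fits leaves 1 pool in a group, so its spread comes from the other group alone. The ranges of counts are given here without shares of all genes, and no conclusion is drawn from these ranges.

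Total counts shifted the median of all genes to 0.17 in LV, 0.15 in 4V, 0.11 for Otx2+/AA and -0.19 between ventricles. The member medians became 0.24 in LV, 0.10 for Otx2+/AA and 0.06 between ventricles. By total counts, 5, 1 and 0 members were called in 4V, between ventricles and for Otx2+/- against Otx2+/AA. These were 5.43%, 1.1% and 0% of members tested, against 12%, 10.1% and 3.27% of all genes. Without a filter, 2 members were called in LV, 1 for Otx2+/AA against wildtype, 15 between ventricles and 0 for Otx2+/- against Otx2+/AA. These were 2.08%, 1.05%, 15.8% and 0% of members tested, against 4.01%, 1.67%, 8.62% and 1.71% of all genes in the same fits. Summed transcripts gave 0 in LV and 0 for Otx2+/- against Otx2+/AA, against 2.85% and 1.64% of all genes. DESeq2 called 2 for Otx2+/- against wildtype, 2.15% of members against 4.54% of all genes. For members, the interaction stayed at 0 calls in each alternative run. The cause was not tested.

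With the pool letter as a replicate block, 13 members were called in 4V (8 higher, 5 lower), 17 for Otx2+/- against wildtype (all lower), 1 for Otx2+/AA against wildtype, 19 between ventricles and 2 for Otx2+/- against Otx2+/AA. These are 14.1%, 18.3%, 1.1%, 20.9% and 2.17% of members tested, beside 21.4%, 17.4%, 3.79%, 15.7% and 3.61% of all genes in the same fits. Deviations of pools with the same letter correlated between -0.128 and 0.359, and with 2 pairs the letters are not shown to pair the pools. In LV, crossing the letters gave 1012 calls over all genes against 622 with the block as labelled.

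With the files as attached, 39 members were called in LV, 81 in 4V and 65 between ventricles (42.4%, 87.1% and 71.4%, beside 44.9%, 58.8% and 32.6% of all genes), the 4V member median was 0.42, and Ndufab1 in 4V reversed to -0.49. Files then joined as runs of 1 pool differed by a chi-square per degree of freedom of 23.4 to 42.4, far above sampling noise. With 2 pools a group the spread is estimated from few values, and for low members such as Cox8b, with 51 and 68 reads in vehicle 4V pools, counting error adds to it.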

Other observations

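Ndufs5, an accessory subunit of complex I that shares 35.6% of its windows with other genes, was at 0.243 to 0.903 CPM in the 8 pools of the conditional model and at 5.53 to 7.06 CPM in the 6 pools of the constitutive model. Strain and sequencing run differ between the models and cannot be told apart.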
